A study of Mus musculus with 24 samples.

Results

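The genes described here are 10 mouse transcripts that mark T lymphocytes and natural killer cells, out of 55385 genes counted in each of 24 RNA-seq libraries of gastrocnemius muscle. They form a given list of symbols, each of which matched 1 identifier of the count files: the T cell receptor subunits Cd3d, Cd3e and Cd3g, the coreceptors Cd4, Cd8a and Cd8b1, the costimulatory receptor Cd28, and the cytotoxic granule genes Gzma, Gzmk and Nkg7. 8 of the 10 had enough reads to enter the test across 17803 genes, and Gzma and Gzmk did not.

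The study examined how muscle transcripts differ with age and after delivery of Klotho, a circulating protein whose loss shortens life in mice. All animals were female C57BL/6J mice, and each of the 6 groups holds 4 libraries. Young mice were 3 to 6 months old, old mice 21 to 24 months and oldest-old mice 27 to 29 months. GFP and AAV-Kl mice received an adeno-associated virus (AAV8) through the tail vein at 3e8 vector genomes per mouse and were sampled 14 days later, as the study states for uninjured female mice without naming the young group. The virus carried either green fluorescent protein (GFP groups, at each age) or mouse Klotho with altered codons (AAV-Kl groups, old and oldest-old), in both cases behind the liver promoter LP-1, so the muscle libraries give no check of the AAV-Kl label. A further young group is labelled sham, and its procedure was not given in the sources used here. By the study's methods, animals in which disease was seen were left out and only those in the middle range of a hanging test were enrolled. The libraries held 36415886 to 59733985 reads on genes, with group medians from 45267698.5 in young GFP to 52050642.0 in oldest-old AAV-Kl.

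T cells recognise antigen through a receptor whose variable chains signal through the invariant CD3 subunits. CD4 marks helper and regulatory T cells and the CD8 heterodimer marks cytotoxic T cells, while natural killer cells and activated cytotoxic T cells carry granules with granzymes. Resting muscle holds few lymphocytes, whereas a lymph node lies in the fat behind the knee, next to the gastrocnemius, and is dense in T and B cells that enter through high endothelial venules.

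The tissue label was checked against muscle fibre transcripts. The 10 muscle fibre genes, led by the fast myosin Myh4, summed to between 136106.44 and 198438.34 CPM (counts per 1000000 reads, on library sizes scaled by the trimmed mean of M-values) in the 24 libraries. By contrast the 10 T cell and natural killer genes drew 13014 reads in all libraries together, 0.00110% of the reads on genes. A difference in so few reads from whole tissue cannot tell fewer cells apart from less RNA per cell.

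5 libraries stood apart from the other 19. Glycam1, which encodes a ligand made by high endothelial venules of lymph nodes, had 829 reads in oldest-old AAV-Kl replicate 2, 1633 in young GFP replicate 3, and 1577, 881 and 1325 in young sham replicates 2, 3 and 4. In the other 19 libraries it had between 0 and 16 reads, and it was at 0 in 12 of them. Chst4, an enzyme of the same venules, had 5 to 33 reads in the 5 libraries and at most 1 elsewhere, and Madcam1 had 6 to 27 reads in them and at most 6 elsewhere.

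The 5 libraries were also those with the most reads on the T cell and natural killer genes. Leaving aside Cd3e and Cd28, which are described separately, the other 8 members had 829 reads in oldest-old AAV-Kl replicate 2, 961 in young GFP replicate 3, and 559, 766 and 682 in young sham replicates 2, 3 and 4. No other library exceeded 152 reads, the value of old AAV-Kl replicate 2, and the next was oldest-old GFP replicate 1 at 90. Of the 4607 reads on these 8 genes, 82.4% came from the 5 libraries, which cut across 3 of the 6 groups. Over all 10 members the share was 48.5% of 13014 reads, with 32.2% for Cd3e and 28.8% for Cd28.

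The list of lymph node stroma and venule genes (6 genes, 4 past the count filter, none at 0 throughout) includes Glycam1, the gene that set the 5 libraries apart. Its sum was 48.7 CPM in oldest-old AAV-Kl replicate 2, 56.7 in young GFP replicate 3, and 55.2, 42.7 and 45.1 in young sham replicates 2, 3 and 4. Elsewhere it ranged from 4.56 to 34.98 CPM, highest in old AAV-Kl replicate 2, where 26.2 CPM came from the B cell chemokine Cxcl13. Without Glycam1 the sum no longer separated the 5 libraries, at 19.8 to 35.1 CPM against 4.54 to 34.8 CPM elsewhere. The 34.8 CPM was old AAV-Kl replicate 2, and the next value elsewhere was 18.2 CPM in oldest-old GFP replicate 4. The chemokine Ccl19 did separate them, with 56 to 143 reads in the 5 and 1 to 17 elsewhere. Cxcl13 did not separate the 5 libraries, with 170 to 701 reads in them, 1313 in old AAV-Kl replicate 2 and 871 in oldest-old GFP replicate 4. The list's most abundant gene was the chemokine Ccl21a, which lymphatic vessels of other tissues also make, with 14.9 to 20.2 CPM in the 5 libraries and 4.08 to 11.8 CPM elsewhere.

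B cell genes (10 genes, all past the filter, led by Cd79a) followed the same libraries with 1 addition. They summed to 23.4 CPM in oldest-old AAV-Kl replicate 2, 87.6 in young GFP replicate 3, and 66.7, 77.8 and 50.2 in young sham replicates 2, 3 and 4. Old AAV-Kl replicate 3 reached 55.9 CPM with only 62 reads on the 8 T cell and natural killer genes and none on Glycam1, and it also had the highest sums for plasma cell genes (1259.1 CPM) and proliferation genes (18.8 CPM). The remaining libraries held 0.507 to 7.96 CPM of B cell genes. The part of lymph node or B cell RNA in any difference between groups was not tested.

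**Figure D1:**
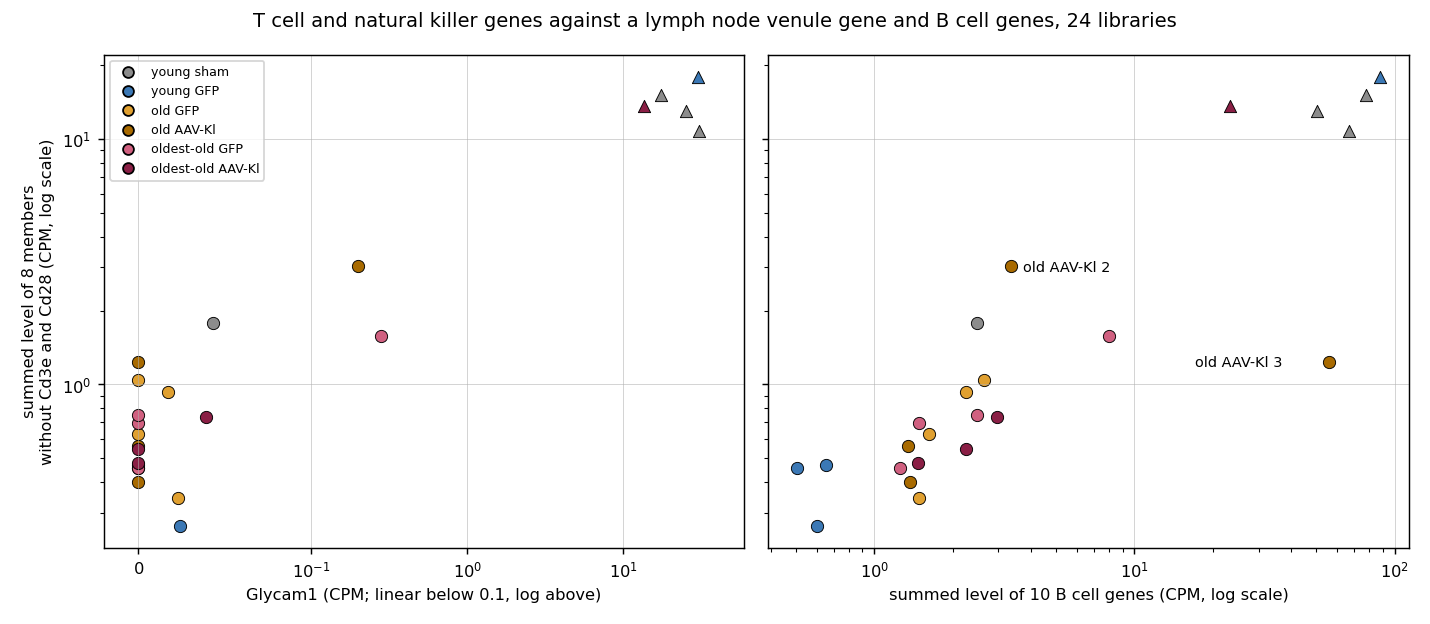
Summed level of the 8 members other than Cd3e and Cd28 (vertical axis, CPM, log scale) against Glycam1 (left, CPM, linear below 0.1 and log above) and against the sum of 10 B cell genes (right, CPM, log scale), with 1 point per library coloured by group. The 5 triangles, the libraries above 10 CPM of Glycam1, lie apart in the upper right corner, and old AAV-Kl replicate 3 has 55.9 CPM of B cell genes at a low level of the 8 members. These 5 libraries held 82.4% of the reads on the 8 plotted members and 48.5% of those on all 10.

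Other cell lists followed the 5 libraries in part or not at all. Keratinocyte genes summed to 364.8 CPM in young GFP replicate 3 and 135.4 in young sham replicate 4, but to 6.02, 2.60 and 2.13 CPM in young sham replicates 2 and 3 and oldest-old AAV-Kl replicate 2. Macrophage genes ranged from 90.9 to 302.7 CPM in the 5 libraries and from 63.8 to 276.0 CPM in the others. Mast cell genes ranged from 12.8 to 48.4 CPM in the 5 and from 7.23 to 59.3 CPM elsewhere. Dendritic cell genes summed to 12.2 to 27.04 CPM in the 5 and 9.11 to 15.7 CPM elsewhere, and 2 of the 8, Flt3 (32 to 77 reads against 1 to 25) and Xcr1 (37 to 75 against 8 to 33), were higher in each of the 5 than in any other library. Proliferation genes summed to 3.04 to 9.33 CPM in the 5 and, apart from old AAV-Kl replicate 3, to 1.21 to 3.93 CPM elsewhere.

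**Figure D2:**
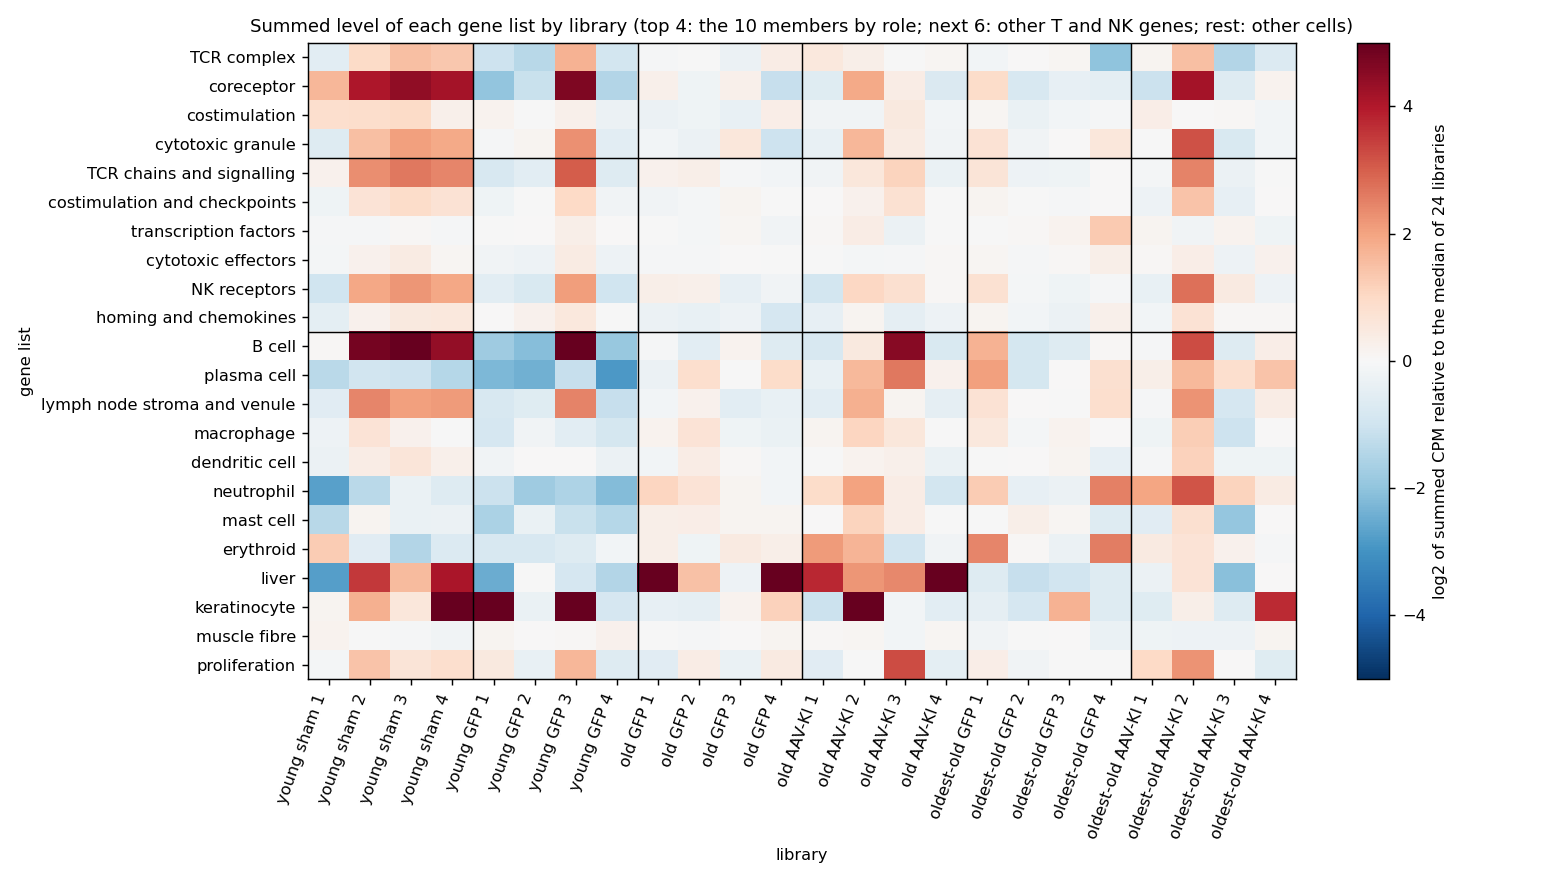
Summed CPM of each gene list (vertical axis) in each of 24 libraries (horizontal axis), as the log2 difference from the list's median over the libraries after adding 0.05 CPM, with the colour scale ending at 5 in both directions. Coreceptor, T cell receptor, natural killer receptor, B cell and lymph node lists are high together in young sham 2 to 4, young GFP 3 and oldest-old AAV-Kl 2, while liver genes are highest in old GFP 1 and keratinocyte genes in young GFP 3, young sham 4 and young GFP 1.

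The T cell receptor subunits Cd3g, Cd3d and Cd3e lie within 1 cluster of chromosome 9, where Cd3g and Cd3d are transcribed away from each other with 1354 bases between them. Their promoters are shown because Cd3d and Cd3g varied together across the libraries (r = 0.86 over 24) and Cd3e followed them less (r = 0.31 with Cd3d and 0.40 with Cd3g), and Cd8a is added as a coreceptor that varied with the first 2. Sequences are 300 bases, 250 before and 50 after the start, from RefSeq on GRCm38.p6, and such a window was found for 7 of the 10 members. Capitals mark the E-box hexamers CAGGTG, which reads CACCTG from the opposite strand, and CAGCTG, which reads alike from both, and both strands were searched. The Cd3g window is chr9:44980382-44980681 on the minus strand, Cd3d chr9:44981536-44981835 on the plus strand, Cd3e chr9:45009562-45009861 on the minus strand and Cd8a chr6:71373177-71373476 on the plus strand.
Cd3g: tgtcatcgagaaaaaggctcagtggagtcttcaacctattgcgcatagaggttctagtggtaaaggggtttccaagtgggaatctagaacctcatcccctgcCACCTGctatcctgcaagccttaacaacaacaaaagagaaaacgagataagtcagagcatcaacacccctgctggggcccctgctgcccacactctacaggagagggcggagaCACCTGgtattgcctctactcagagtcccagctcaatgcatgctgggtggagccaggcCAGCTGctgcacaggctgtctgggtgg
Cd3d: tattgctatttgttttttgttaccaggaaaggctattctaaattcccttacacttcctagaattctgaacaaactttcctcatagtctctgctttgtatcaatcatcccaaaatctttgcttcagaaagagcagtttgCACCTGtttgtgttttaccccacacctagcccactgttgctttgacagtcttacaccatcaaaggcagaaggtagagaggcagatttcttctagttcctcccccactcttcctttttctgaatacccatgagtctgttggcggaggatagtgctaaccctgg
Cd3e: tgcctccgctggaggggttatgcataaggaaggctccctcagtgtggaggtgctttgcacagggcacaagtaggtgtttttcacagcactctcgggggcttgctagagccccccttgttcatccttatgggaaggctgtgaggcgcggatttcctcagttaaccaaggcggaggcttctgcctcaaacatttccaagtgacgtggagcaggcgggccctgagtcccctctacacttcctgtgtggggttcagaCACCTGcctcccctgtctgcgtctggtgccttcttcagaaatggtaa
Cd8a: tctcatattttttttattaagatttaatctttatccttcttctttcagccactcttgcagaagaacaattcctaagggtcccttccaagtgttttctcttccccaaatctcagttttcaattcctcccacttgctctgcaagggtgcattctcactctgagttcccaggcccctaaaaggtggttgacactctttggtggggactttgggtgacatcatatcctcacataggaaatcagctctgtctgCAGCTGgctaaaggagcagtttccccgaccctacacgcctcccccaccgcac

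CAGGTG was found in 4 of the 7 windows (Cd3g, Cd3d, Cd3e and Gzma) and in 20.2% of all 32851 promoters of the table. CAGCTG was found in Cd8a and Cd3g, against 16.3% of all promoters. The ETS core AGGAAG was present in 3 of 7 windows (35.4% of all promoters), the RUNX core TGTGGT in 2 (16.8%), the TCF core CTTTGA in 2 (16.003%) and the GATA sequence AGATAA in 1 (11.2%); both strands were searched and overlaps between motifs were not examined. A match of letters is a description of the window only.

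Cd3g, the gamma subunit, had 14, 3, 9 and 7 reads in oldest-old GFP replicates 1 to 4, 8, 136, 6 and 4 in oldest-old AAV-Kl, 10, 3, 8 and 3 in old GFP, 7, 25, 17 and 0 in old AAV-Kl, 6, 2, 178 and 1 in young GFP, and 8, 95, 129 and 130 in young sham. The 5 libraries with marked Glycam1 hold every value above 25, and the groups otherwise overlap. Cd3d, the delta subunit, was lower in the same pattern: 39 to 89 reads in the 5 libraries, at most 8 in the other 19, and 0 in 7 libraries. The mean of Cd3g was 1.76 ± 1.11 CPM (SD, n = 4) in young sham and 0.883 ± 1.62 in young GFP, against 0.130 ± 0.0821 in old GFP and 0.156 ± 0.0795 in oldest-old GFP, so that the SD in young GFP exceeded its mean.

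Cd3e, the epsilon subunit, was counted in every library. It had 107, 100, 114 and 27 reads in oldest-old GFP, 129, 241, 38 and 74 in oldest-old AAV-Kl, 122, 123, 63 and 134 in old GFP, 146, 122, 103 and 125 in old AAV-Kl, 42, 35, 179 and 52 in young GFP, and 69, 116, 148 and 137 in young sham. Libraries with almost no Cd3d or Cd3g, such as old GFP replicate 4 with 2 and 3 reads, thus had 134 reads of Cd3e, although the protein products form 1 complex. The annotation places an antisense transcript, Gm48719, across exons of Cd3e, and counting took no account of strand. The counts given here leave out reads in the overlap: Cd3e had 2546 reads this way and 2990 when the strand columns were summed, and Gm48719 had 387 and 831. In young GFP, young sham and oldest-old AAV-Kl, the libraries with marked Glycam1 had more Cd3e than the rest of their group, but other groups held up to 146 reads without marked Glycam1.

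Cd4, the helper T cell coreceptor at chr6:124864692-124888221, had 15, 6, 8 and 5 reads in oldest-old GFP, 8, 348, 6 and 10 in oldest-old AAV-Kl, 18, 16, 11 and 5 in old GFP, 8, 59, 18 and 7 in old AAV-Kl, 1, 4, 188 and 0 in young GFP, and 23, 150, 186 and 112 in young sham. The highest value belongs to oldest-old AAV-Kl replicate 2, followed by 4 young libraries, while the 3 other young GFP libraries have the fewest reads of all 24 (by CPM, oldest-old GFP replicate 4 lies below young GFP replicate 2). Cd4 is also made by some macrophages and dendritic cells, which are present in muscle. As group means it was 2.30 ± 1.36 CPM (SD, n = 4) in young sham, 1.54 ± 2.78 in oldest-old AAV-Kl, 0.906 ± 1.73 in young GFP, 0.467 ± 0.481 in old AAV-Kl, 0.258 ± 0.0956 in old GFP and 0.165 ± 0.0771 in oldest-old GFP, and neighbours in this order do not differ beyond their spread.

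Cd8a, the alpha chain of the cytotoxic coreceptor, had 14, 1, 1 and 3 reads in oldest-old GFP, 1, 106, 4 and 9 in oldest-old AAV-Kl, 9, 1, 6 and 2 in old GFP, 1, 16, 1 and 2 in old AAV-Kl, 2, 3, 249 and 3 in young GFP, and 25, 125, 173 and 177 in young sham. It was below 10 reads in 16 of the 24 libraries. Cd8b1, the beta chain, lies 35932 bases from Cd8a on chromosome 6 and followed it closely, with 19, 2, 5 and 10 reads in oldest-old GFP, 0, 50, 3 and 6 in oldest-old AAV-Kl, 3, 2, 1 and 0 in old GFP, 2, 9, 9 and 2 in old AAV-Kl, 0, 0, 196 and 2 in young GFP, and 19, 117, 150 and 149 in young sham. Both chains were highest in young GFP replicate 3 and next highest in young sham replicates 2 to 4, and within each group of aged mice the values overlap those of young GFP replicates 1, 2 and 4. A count of 0 in young GFP replicate 1 allows up to 3 reads, or 0.0702 CPM, a limit that covers counting error only.

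The balance of the coreceptors differed among the 5 libraries with marked Glycam1. Per length (RPKM, the CPM per kilobase of annotated exon), Cd4 was 2.96 times Cd8a in oldest-old AAV-Kl replicate 2, 0.681 times in young GFP replicate 3, and 1.08, 0.970 and 0.571 times in young sham replicates 2, 3 and 4. The only aged library of the 5 thus had the highest ratio, with 1.42 RPKM of Cd4 against 0.479 of Cd8a, and as 1 library it gives no comparison of ages. Cd8b1 was 1.16 times Cd8a per kilobase in that library and 1.93 to 2.30 times in the 4 young ones.

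Cd28, the receptor for the costimulatory signal in T cell activation (chr1:60716800-60773359), followed the other members less closely than most (r = 0.51 with their mean over 24 libraries). It had 273, 144, 187 and 270 reads in oldest-old GFP, 285, 275, 239 and 205 in oldest-old AAV-Kl, 212, 204, 123 and 247 in old GFP, 167, 198, 311 and 193 in old AAV-Kl, 212, 181, 281 and 149 in young GFP, and 371, 422, 438 and 274 in young sham. Every library was above 100 reads, including those with 0 to 3 reads of Cd3d and Cd8a. Its mean was 7.50 ± 1.54 CPM (SD, n = 4) in young sham and between 4.14 and 4.66 CPM in the other 5 groups, which do not differ beyond their spread. Young sham replicate 1, which had 2 reads of Glycam1, had 7.97 CPM of Cd28, and replicates 2, 3 and 4, which are among the 5 libraries with marked Glycam1, had 8.17, 8.64 and 5.23 CPM.

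The cytotoxic granule genes were close to the limit of detection. Gzma, granzyme A, had between 0 and 19 reads, with 2 libraries at 10 or more, old AAV-Kl replicate 2 (19 reads) and oldest-old AAV-Kl replicate 2 (17 reads). Gzmk, granzyme K, had 30 reads in oldest-old AAV-Kl replicate 2, at most 4 in every other library and 0 in 11. Young GFP replicate 3 and young sham replicates 2 to 4, which had the most Cd8a, had 0, 0, 2 and 0 reads of Gzmk and 2, 4, 4 and 6 of Gzma, so granzyme reads stood out in the oldest-old library of the 5 and not in the young ones. Both genes lie on chromosome 13, 70626 bases apart. For these 2 genes an exact two-sided permutation test of CPM over the 8 libraries of each of 6 comparisons gave p between 0.257 and 1, where the smallest p that 4 against 4 can give is 0.0286.

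Nkg7, a granule membrane protein of natural killer and cytotoxic T cells, passed the count filter. It had 11, 5, 5 and 11 reads in oldest-old GFP, 7, 85, 0 and 4 in oldest-old AAV-Kl, 8, 4, 5 and 1 in old GFP, 3, 15, 8 and 5 in old AAV-Kl, 2, 5, 59 and 3 in young GFP, and 0, 29, 43 and 39 in young sham. Oldest-old AAV-Kl replicate 2 again leads, here ahead of the young libraries. The list of natural killer receptors (11 genes, 6 past the count filter, led by Il2rb) also holds the kinase Txk and the chemokine Xcl1, which are not receptors. It summed to 4.34 to 7.72 CPM in the 5 libraries with marked Glycam1 and to at most 2.33 CPM in the other 19. Of the 6, 4 had more reads in each of the 5 libraries than in any other: Il2rb with 102 to 237 against 3 to 50, Klrd1 with 29 to 55 against 1 to 11, Klrk1 with 18 to 45 against 0 to 14, and Txk with 17 to 39 against 0 to 8. The others overlapped, Cd160 with 8 to 21 reads against 4 to 40 and Cd244a with 10 to 76 against 1 to 23. Below the filter, Ncr1 overlapped too, with 1 to 6 reads in the 5 and 0 to 7 elsewhere, and was at 0 in 10 libraries. Klrb1c had 3 to 8 reads in the 5 and 0 to 3 elsewhere.

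**Figure D3:**
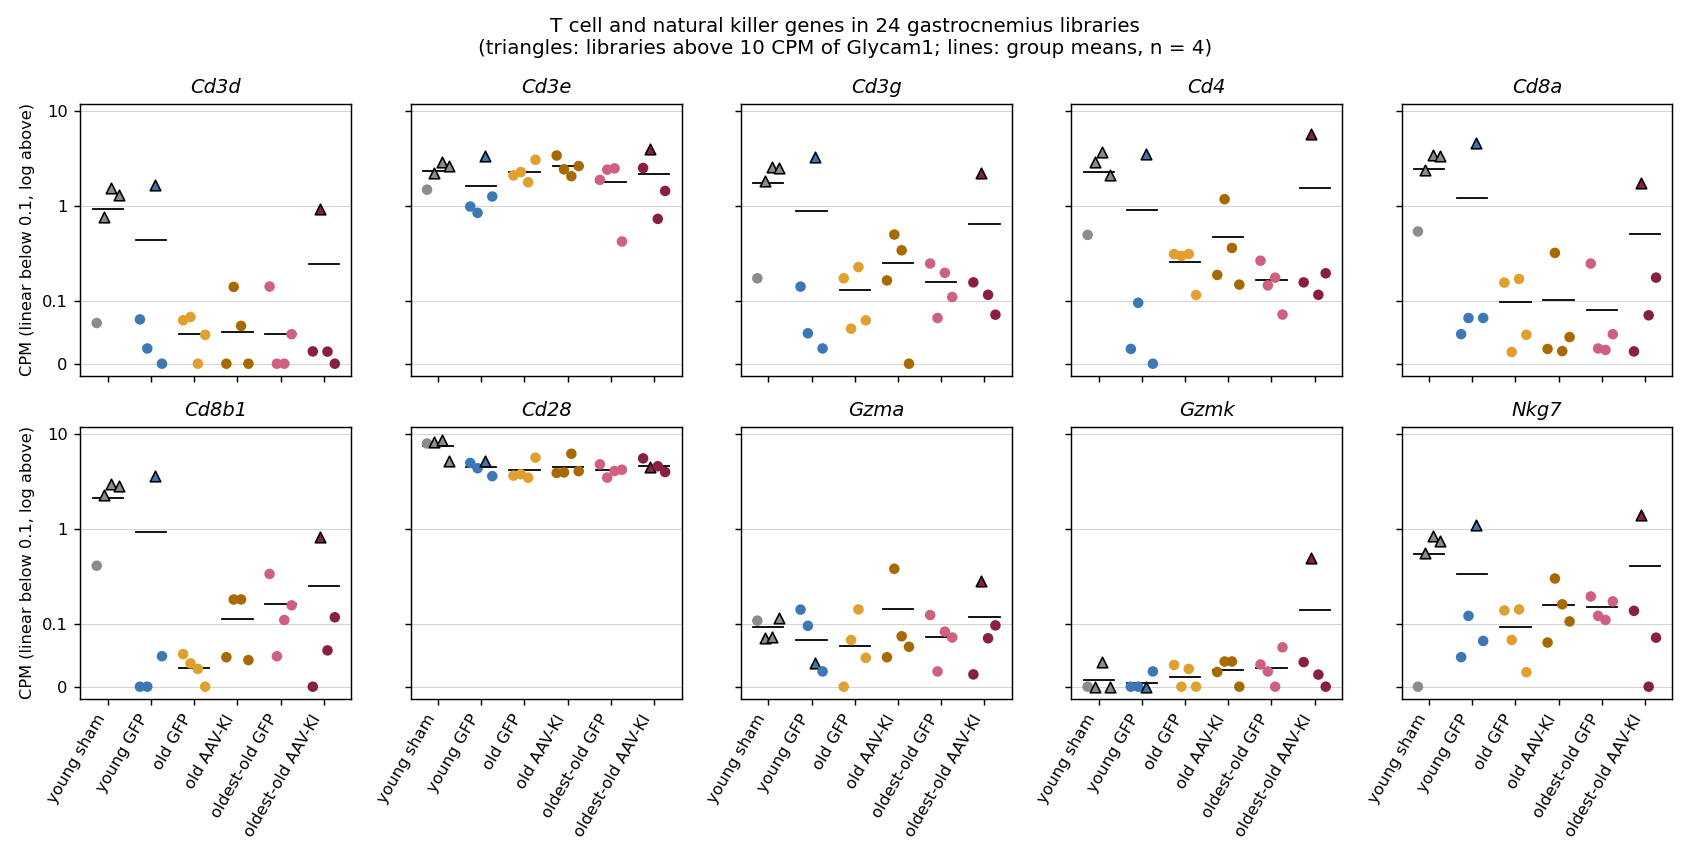
Level of each of the 10 genes (CPM, linear below 0.1 and log above) in the 24 libraries by group, with horizontal lines for group means (n = 4) and triangles for the 5 libraries above 10 CPM of Glycam1. Triangles lie above the other points of their group for Cd3d, Cd3e, Cd3g, Cd4, Cd8a, Cd8b1 and Nkg7, but not for Cd28. For Gzmk, oldest-old AAV-Kl 2 (30 reads) and young sham 3 (2 reads) lie above the rest of their groups.

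Compared per kilobase of exon, the members differed in order between groups. In young sham the mean was highest for Cd8b1 at 1.43 RPKM, followed by Cd28 at 1.23, Cd8a at 0.670, Nkg7 at 0.589, Cd4 at 0.571, Cd3e at 0.568, Cd3g at 0.538 and Cd3d at 0.509. In old GFP, Cd28 (0.675 RPKM) and Cd3e (0.565) led and the next was Nkg7 at 0.103, with Cd3d at 0.0260 and Cd8b1 at 0.0197. Outside the 5 libraries with marked Glycam1, Cd28 and Cd3e thus made up most of what the list measured.

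Summed over the 10 members, the mean level was 20.01 ± 6.42 CPM (SD, n = 4) in young sham, 10.9 ± 10.4 in young GFP, 10.7 ± 7.72 in oldest-old AAV-Kl, 8.47 ± 1.18 in old AAV-Kl, 7.18 ± 1.27 in old GFP and 6.81 ± 1.24 in oldest-old GFP. Without young GFP replicate 3 the young GFP mean was 5.82 CPM, and without oldest-old AAV-Kl replicate 2 the mean of that group was 6.804 CPM, below and level with the aged GFP groups. The order of the young and aged GFP groups thus turned on 1 library.

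With age, none of the 8 tested members was called by edgeR between old GFP and young GFP (0 of 8 at an adjusted p below 0.05, beside 4.7% of 17803 genes called, in 837 genes). DESeq2 called 1 member, Cd8b1, against 6.15% of its tested genes. 3 of the 8 had an unadjusted p under 0.05 by edgeR, beside 19.1% of all genes. 7 of 8 were lower in old GFP with a median log2 fold change of -2.33, where the median of all genes was 0.00. The count filter used all 24 libraries, and Cd3d reached 10 reads only in the 5 with marked Glycam1 (39 to 89 reads, at most 8 elsewhere). In comparisons that include any of these libraries, the members' directions and medians thus rest in part on libraries that let members pass the filter. Cd8b1 had a log2 fold change of -4.83 ± 1.59 (SE, n = 4; edgeR adjusted p = 0.0882) and Cd8a of -3.66 ± 1.43 (edgeR adjusted p = 0.152). Both turned around without young GFP replicate 3, to 0.83 for Cd8b1 and 0.53 for Cd8a, so neither direction was shared by the other libraries.

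Between oldest-old GFP and young GFP, which shares its young libraries with the comparison of old GFP, again 0 of 8 members were called by edgeR, although 14.9% of all genes were. DESeq2 called 1, Cd8a, against 16.4% of genes. 1 of 8 members had an unadjusted p under 0.05 by edgeR, against 29.8% of genes. With all libraries, 7 of 8 were lower in oldest-old GFP, with a median log2 fold change of -2.48, where the median of all genes was 0.03. Cd8a had a log2 fold change of -3.76 ± 1.42 (SE, n = 4; edgeR adjusted p = 0.0773), which became 0.43 without young GFP replicate 3. Without all 5 libraries with Glycam1 above 10 CPM, an alternative chosen after seeing the data, Cd3d fell below the count filter and Gzma passed it. edgeR called 0 of these 8 members in either age comparison, with 2 at an unadjusted p under 0.05 in each, where 1.66% and 9.47% of 19136 genes were called and 17.6% and 26.2% had an unadjusted p under 0.05. Their median log2 fold change was 0.67 for old GFP and 0.82 for oldest-old GFP against young GFP.

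No difference between oldest-old GFP and old GFP was detected in these genes. edgeR called 0 of 8 members (0.00562% of all genes), with 0 of 8 at an unadjusted p under 0.05 (11.998% of all genes), and DESeq2 called 0 (0.603% of its genes). The median log2 fold change of the members was 0.00 beside 0.02 for all genes, over values from -0.64 to 2.34, the highest being Cd8b1 (SE 1.73, edgeR adjusted p = 0.610). Without the 5 libraries Cd8b1 was at 2.32 (edgeR adjusted p = 0.387), and 1 of the 8 genes then tested had an unadjusted p under 0.05 (10.9% of all genes). Neither group holds a library with marked Glycam1, and the values of all members overlap between the 2 groups.

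Delivery of Klotho was not followed by a detectable change in the members at either age. In old mice edgeR called 0 of 8 members and 0% of all genes in AAV-Kl against GFP, with 0 of 8 at an unadjusted p under 0.05 (2.15% of all genes) and 0 by DESeq2 (0% of its genes). All 8 tested members had higher fitted means in AAV-Kl, by a median of 0.47 on the log2 scale beside 0.01 for all genes, and old AAV-Kl replicate 2, with 152 reads on 8 of the genes, was the highest library for Cd3d, Cd3g, Cd4, Cd8a, Gzma and Nkg7 in these groups. That library also had their highest macrophage (276.0 CPM), mast cell (59.3 CPM), neutrophil (12.2 CPM) and keratinocyte (66.8 CPM) sums.

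In oldest-old mice edgeR called 0 of 8 members against 0.0112% of all genes, and DESeq2 called 0 against 0.156%. 1 of 8 members had an unadjusted p under 0.05 (8.08% of all genes), Cd4, with a log2 fold change of 3.22 ± 1.37 (SE, n = 4; edgeR adjusted p = 0.557). Without oldest-old AAV-Kl replicate 2 that value was -0.08, and the remaining AAV-Kl libraries, at 8, 6 and 10 reads, lay within the 5 to 15 reads of oldest-old GFP. Replicate 2 also had the highest macrophage (302.7 CPM), dendritic cell (27.04 CPM) and neutrophil (26.4 CPM) sums of all libraries. Their part in the Cd4 difference was not tested. All 8 members had higher fitted means in AAV-Kl, with a median log2 fold change of 1.73 beside 0.01 for all genes, and without the 5 libraries the median of the 8 genes then tested was -0.24. The difference between the 2 ages in the response to AAV-Kl, tested as an interaction, was called for 0 of 8 members by edgeR (0.00562% of all genes; 0 of 8 at an unadjusted p under 0.05, beside 5.76%) and 0 by DESeq2 (0.00271%). Its median over the members was 0.87 on the log2 scale, with 7 of 8 above 0. Without the 5 libraries the median of the 8 genes then tested was -1.16.

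Young GFP was also compared with young sham, whose procedure is not known. edgeR called 0 of 8 members beside 0.472% of all genes, with 1 of 8 at an unadjusted p under 0.05 (13.4% of all genes), and DESeq2 called 1, Cd28, beside 1.73%. Cd28 was lower in young GFP, with a log2 fold change of -0.72 ± 0.188 (SE, n = 4; edgeR adjusted p = 0.0910 and DESeq2 adjusted p = 0.0252), and young GFP replicate 3 at 5.24 CPM and young sham replicate 4 at 5.23 CPM are where the 2 groups meet. Without young sham replicate 4 it was called by edgeR too, at a log2 fold change of -0.84 (adjusted p = 0.0461). Leaving out each library in turn gave log2 fold changes between -0.84 and -0.61 for this gene. Without all 5 libraries with marked Glycam1, which leaves 1 young sham library, the log2 fold change of Cd28 was -0.88.

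The call of Cd8b1 in the same contrast turned on 1 library. Its log2 fold change was -1.17 ± 1.13 (SE, n = 4; edgeR adjusted p = 0.655) with all libraries, where young GFP had 0, 0, 196 and 2 reads against 19, 117, 150 and 149. Without young GFP replicate 3 it was -6.81 and was called (edgeR adjusted p = 0.0269). Without all 5 libraries with marked Glycam1 it was -4.46 and was not called (edgeR adjusted p = 0.788), with 19 reads in the 1 young sham library left against 0, 0 and 2 in young GFP. In that fit 5 of the 8 tested members had an unadjusted p under 0.05, beside 4.57% of 19136 genes. Of these, 4 were lower in young GFP and Nkg7 was higher, with 2, 5 and 3 reads against 0, and edgeR called 0 of 8 members and 0 genes in all. Of the 5 libraries, 3 belong to young sham and 1 to young GFP. How these libraries came to be spread over the groups cannot be told from the labels.

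**Figure D4:**
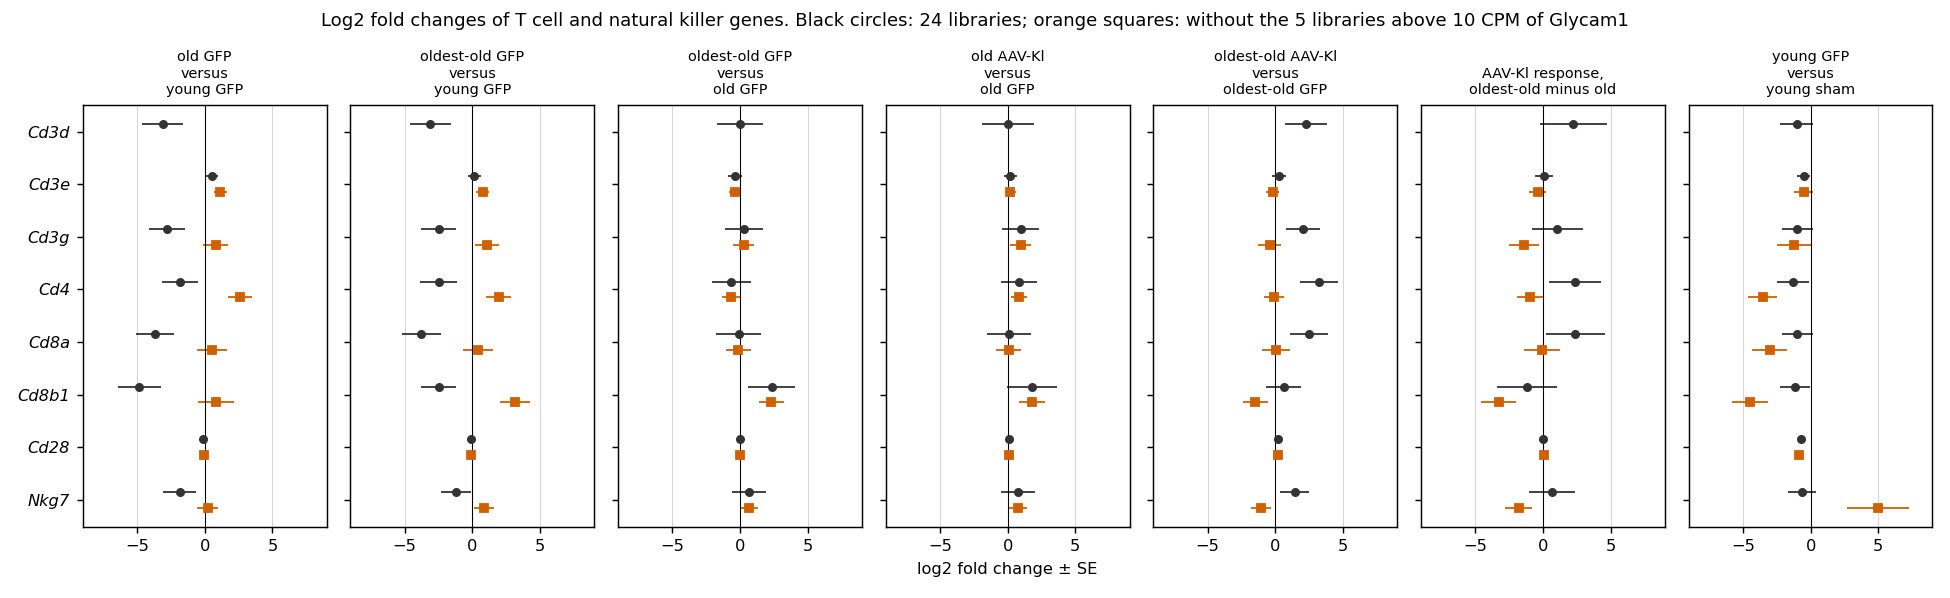
Log2 fold change ± SE (horizontal axis) of the 8 tested members in 7 comparisons, from edgeR on 24 libraries (black circles) and without the 5 libraries above 10 CPM of Glycam1 (orange squares; Cd3d falls below the count filter there). Both age comparisons against young GFP move from mostly negative to mostly positive, and young sham keeps 1 library in the second fit, whose spread is taken from the other groups.

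Other genes of T and natural killer cells were examined as 6 lists with 67 genes, of which 56 passed the count filter. edgeR called 2 of the 56 in old GFP against young GFP (1 higher, 1 lower), 1 in oldest-old GFP against young GFP (higher), and 0 in each of the other 5 comparisons. An unadjusted p under 0.05 was found for 11 of 56 in old GFP and 14 of 56 in oldest-old GFP against young GFP, beside 19.1% and 29.8% of all genes, and for 0 to 3 in the others, beside 2.15% to 13.4%. The interferon-induced chemokine Cxcl10, which draws activated T cells, rose in both, with log2 fold changes of 2.38 ± 0.506 (SE, n = 4; edgeR adjusted p = 0.00956) in old and 2.60 ± 0.506 (adjusted p = 0.00217) in oldest-old GFP. It had 52, 91, 75 and 41 reads in old GFP and 200, 24, 53 and 81 in oldest-old GFP against 7, 12, 22 and 8 in young GFP, so neither aged group overlaps young GFP, in comparisons that share the young libraries and in which 4.7% and 14.9% of all genes were called. Its correlation with the mean of the members was -0.11 over 24 libraries and 0.32 over the 19 without marked Glycam1.

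S1pr1, a receptor that guides lymphocytes out of lymph nodes and is abundant in endothelium, was lower in old GFP by a log2 fold change of -0.63 ± 0.163 (SE, n = 4; edgeR adjusted p = 0.0297). By edgeR the call was lost without any 1 of 5 libraries, old GFP replicate 2 (adjusted p = 0.0596) or 4 (0.0705) or young GFP replicate 1 (0.0548), 2 (0.0702) or 4 (0.0603), and also without the 5 libraries with Glycam1 (adjusted p = 0.0546), with log2 fold changes between -0.72 and -0.52 when each library was left out. No gene of the lists on receptor chains and signalling, costimulation and checkpoints, transcription factors, cytotoxic effectors or natural killer receptors was called in any of the 7 comparisons by edgeR.

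The receptor chains themselves followed the members. Trac, the constant region of the alpha chain, had 188 to 390 reads in the 5 libraries with marked Glycam1 and 2 to 29 in the other 19, and Trbc2 had 132 to 283 and 0 to 25. Trbc1 and Trbc2 are near copies, so reads may be split between them or lost. Trdc, the constant region of the delta chain of gamma-delta T cells, behaved otherwise, with 20 to 107 reads in the 5 and 13 to 67 in the 19 and a correlation of -0.01 with the mean of the members.

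Some genes of these lists were abundant in every library. S1pr1 had 1209 to 4221 reads, far above any T cell member, and Gzmm, a granzyme, had 202 to 457 reads in all libraries while Gzmb had at most 27. The lymphocyte homing receptor Ccr7, a marker of cells that recirculate through lymph nodes, had 106 to 157 reads in the 5 libraries and 0 to 32 in the others. Ifng had 7 reads in all 24 libraries together, 5 of them in oldest-old AAV-Kl replicate 2.

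Of the cell lists beyond T and natural killer cells, the B cell list had 1 gene called, Fcer2a, in oldest-old GFP against young GFP (log2 fold change -4.02 ± 1.34, SE, n = 4; edgeR adjusted p = 0.0473), a receptor of mature B cells with 7, 3, 602 and 6 reads in young GFP. Without young GFP replicate 3 its log2 fold change was 0.45, and leaving out any 1 of the 4 oldest-old GFP libraries also lost the call (edgeR adjusted p from 0.0672 to 0.114). The plasma cell list had 3 genes called higher in oldest-old GFP and 2 in old GFP, the neutrophil list 6 of 6 higher and the erythroid list 6 of 6 higher in oldest-old GFP, all against young GFP, in comparisons where 14.9% (oldest-old) and 4.7% (old) of all genes were called. Erythroid sums were 604.4, 115.8, 90.2 and 658.6 CPM in oldest-old GFP against 63.1 to 101.3 CPM in young GFP, so 2 libraries carried most of the level and replicate 3 lay within the young range. Liver genes were higher in old GFP (8 of 8 called), with sums of 866.7, 3.64, 1.07 and 86.8 CPM against 0.187 to 1.25 CPM in young GFP, so replicate 3 lay within the young range. Keratinocyte genes were lower in oldest-old GFP (4 of 7 called), where young GFP had 116.9, 1.37, 364.8 and 0.942 CPM and replicates 2 and 4 lay within the 0.941 to 5.89 CPM of oldest-old GFP. In addition, 1 of 6 mast cell genes was higher at both ages, and muscle fibre genes had 1 higher and 3 lower of 10 in oldest-old GFP. No gene of the macrophage, dendritic cell, proliferation or lymph node lists was called by edgeR in the 7 comparisons.

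Across the 24 libraries, genes among the 10 most like the mean log2 level of the 8 tested members were, by Pearson correlation over 17803 genes, Acap1 (r = 0.97), Ighd (0.97), Rasal3 (0.96), Lck (0.96), Tcf7 (0.96), Grap2 (0.96), Glycam1 (0.96), Lat (0.96) and Ikbke (0.95). Lck and Lat are signalling proteins of the T cell receptor and Ighd is the IgD heavy chain of naive B cells, so the set joins T cell, B cell and venule genes. These correlations describe libraries that differ in depth and tissue makeup and rest on the 5 to different degrees: of the reads of Glycam1, 99.5% came from them, of Lck 85.0%, of Tcf7 70.7% and of Ikbke 48.1%. In the other 19 libraries r was 0.66 for Glycam1, 0.75 for Ighd, 0.74 for Lck and 0.84 for Ikbke. Glycam1 had a median of 0 reads in these 19, with 12 of them at 0 and at most 16 reads. With so few reads, its r cannot tell whether Glycam1 still varied with the members outside the 5.

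Among the members, the 15 pairs of Cd3d, Cd3g, Cd4, Cd8a, Cd8b1 and Nkg7 had correlations from 0.62 to 0.86 over 24 libraries, with a median of 0.80. In the 19 libraries without marked Glycam1 the same pairs ranged from -0.15 to 0.53 with a median of 0.33, at counts where most values are below 10 reads. Cd28, Cd3e and Nkg7 had r of 0.51, 0.43 and 0.71 with the mean of the other tested members over 24 libraries, and 0.16, 0.09 and 0.07 over the 19.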

How the data were processed

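RNA was sequenced from gastrocnemius muscle of 24 female mice in 6 groups of 4. The deposited files hold read counts per gene that the authors made with STAR on mm10, with FastQC as their quality check, and no normalisation was applied to them. Each file has a column without strand and a column for each strand. The first-strand column held between 49.8% and 50.4% of the stranded reads, so the column without strand was used.

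The 10 symbols were matched to the 55385 Ensembl genes through an annotation of GRCm38 that held a symbol for 55144. The members and all gene lists were chosen with earlier results of these data known. Counts were scaled by the trimmed mean of M-values and fitted in R 4.3.3 with edgeR 4.0.16 (quasi-likelihood F test, a minimum count of 10 in filterByExpr, 1 mean per group), and p-values were adjusted by Benjamini-Hochberg over all 17803 genes. DESeq2 1.42.0 (Wald test) was a further tool. Genes past an adjusted p of 0.05 count as called. The code was tested on simulated data, in which only genes above the mean level of most members were changed. That test does not cover changes in genes with so few reads.

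Members below the filter were compared by exact permutation tests. Likeness is Pearson's r with the mean log2 CPM, after adding 0.5 reads, over the 8 tested members, from which the 10 highest genes were taken; some results are not reported here. List genes given with a fold change are those called, and those given by reads alone were chosen after their values were seen. Depth was 36415886 to 59733985 reads on genes, a count of 0 allows up to 3 reads, and floors cover counting error only. The alternatives were other size factors, DESeq2, no count filter, summed strand columns, fits to fewer groups, the replicate number as a block, leaving out each library, and leaving out 5 libraries with Glycam1 above 10 CPM, the last chosen after seeing the data. No library was left out otherwise, and no pair of libraries within a group was a duplicate.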

Additional observations from a re-analysis of the deposited data

Results flagged for a closer look

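In each group of 4 libraries, the highest or lowest library was compared with the rest by its gap to the nearest other library, divided by the range of the group. Of 66 sets of 4 values (the 10 genes and their sum in 6 groups), 24 had a gap above Dixon's critical value for groups of 4, where chance alone gives about 1 in 20 for independent normal values. The sets are correlated and many hold few reads, so the number expected by chance here is not known. Young GFP replicate 3 accounts for 8 of the 24 and oldest-old AAV-Kl replicate 2 for 7.

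Young GFP replicate 3 lay far above its group for Cd3d (1.66 CPM), Cd3e (3.34 CPM), Cd3g (3.32 CPM), Cd4 (3.51 CPM), Cd8a (4.64 CPM), Cd8b1 (3.65 CPM), Nkg7 (1.10 CPM) and the sum of the 10 genes (26.5 CPM). Oldest-old AAV-Kl replicate 2 did so for Cd3d (0.936 CPM), Cd3g (2.23 CPM), Cd4 (5.71 CPM), Cd8a (1.74 CPM), Cd8b1 (0.821 CPM), Gzmk (0.493 CPM) and Nkg7 (1.40 CPM). Both libraries are among the 5 with Glycam1 above 10 CPM. In young sham, where 3 of 4 libraries are among the 5, the same measure found a gap for Gzmk alone.

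Old GFP replicate 4 had a low Cd4 (0.114 CPM), a high Cd28 (5.65 CPM) and a high sum (9.06 CPM). Old AAV-Kl replicate 2 was high for Cd8a (0.319 CPM) and Gzma (0.379 CPM), old AAV-Kl replicate 3 for Cd28 (6.21 CPM), and oldest-old GFP replicate 1 for Cd8a (0.246 CPM). For Gzmk, young GFP replicate 4 (0.0242 CPM, 1 read) and young sham replicate 3 (0.0395 CPM, 2 reads) were the only libraries of their groups above 0, a gap that a few reads can make.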

How the results depend on the processing

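The count of members called was 0 in 114 of 119 alternatives and 1 in the other 5. Fewer members passed the filter in 2 alternatives, so a 0 there covers only those tested: 6 of 10 without the young sham group, and 2 to 4 in fits to the compared groups alone (8 for young GFP against young sham). With DESeq2 it was 1 in old GFP against young GFP (Cd8b1), 1 in oldest-old GFP against young GFP (Cd8a) and 1 in young GFP against young sham (Cd28). Leaving out 1 library at a time gave 0 to 1 in young GFP against young sham (Cd8b1 without young GFP replicate 3, Cd28 without young sham replicate 4) and 0 in each of the other 6 comparisons.

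Among log2 fold changes of named genes, 139 of 166 values kept their direction and side of the threshold, 12 lost the call, 5 gained one and 10 changed sign. With 1 library left out, Cd8b1 in old GFP against young GFP ranged from -5.25 to 0.83, Cd8a from -4.07 to 0.53, Cd8a in oldest-old GFP against young GFP from -5.14 to 0.43, Fcer2a there from -4.70 to 0.45, and Cd4 in oldest-old AAV-Kl against GFP from -0.085 to 3.61. Without the 5 libraries with Glycam1 above 10 CPM, chosen after seeing the data, the same genes in that order had 0.83, 0.54, 0.42, 0.44 and -0.083. The sign changed only where young GFP replicate 3 or oldest-old AAV-Kl replicate 2 was left out, and the cause was not tested. Young sham then keeps 1 library, assumed to vary like the other groups, and its summed level moved from 20.01 to 11.2 CPM. The summed level moved from 10.9 to 5.82 CPM in young GFP without replicate 3 and from 10.7 to 6.804 CPM in oldest-old AAV-Kl without replicate 2.

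With the replicate number as a replicate block, 0 of 8 members were called by edgeR in each of the 7 comparisons. That fit called 710 of 17803 genes in old GFP and 2510 in oldest-old GFP, both against young GFP. It called 69 in young GFP against young sham and 0 to 2 in the other comparisons. Fcer2a was no longer called (log2 fold change -2.86, edgeR adjusted p = 0.207). The labels do not say whether the replicate numbers pair animals. By deviations from group means, 3 of 24 libraries correlated best with a library of their own number in another group. The mean correlation was 0.0005 for the same number and -0.0002 for other numbers. Whether the numbers stand for shared batches or cohorts was not tested.

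At 36415886 to 59733985 reads a library, most members had under 10 reads in most libraries, and the exact permutation tests detected no difference in Gzma or Gzmk. In young GFP and oldest-old AAV-Kl, 1 of 4 libraries carries most coreceptor reads, and the coreceptor fold changes that reversed rest on it. Fewer cells cannot be told apart from less RNA per cell, the sham procedure is not described, and the Cd3e counts leave out reads where an antisense gene overlaps it.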
